A study of Rattus norvegicus with 34 samples.

Results

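The genes described here are the 3 peroxisome proliferator-activated receptors on the array, Ppara, Ppard and Pparg, and Cyp4a1, a fatty acid hydroxylase whose gene is a known target of Ppara in rat liver. They were chosen by the gene name in the spot files and came to 4 genes of 236, and to 5 probes of 239 that carry a gene name. Ppara had 2 probes, which were kept apart. The probe called Ppara-1 here is named PPAR ALPHA in the files. Ppara-2 is labelled PPAR with no letter and was matched to Ppara by gene symbol, so its gene rests on that match. The other genes had 1 probe each.

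The receptors are nuclear receptors that bind fatty acids and their derivatives. Each pairs with a retinoid X receptor, such as Rxra, and the pair binds DNA at direct repeats of a short core motif. Ppara drives fatty acid oxidation in hepatocytes, Pparg drives fat cell differentiation, and Ppard is expressed in many tissues and also turns on genes of fatty acid use. The Cyp4a1 enzyme adds a hydroxyl group to the end carbon of fatty acids and is induced in rodent liver by peroxisome proliferators. The retinoid X receptor is shared with the retinoic acid receptors Rara, Rarb and Rarg, which retinoic acid activates.

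The study dosed pregnant Wistar rats daily with the calcium sensitizer EMD 82571 at 150 or 50 mg/kg/day, or with retinoic acid, and its title gives teratogenicity as the question. Tissue was taken on gestational day 20 (embryo bone, embryo liver and maternal liver) and on gestational day 12 (whole embryo and maternal liver). Each array held RNA of a treated tissue, labelled with Cy5, and of the same tissue from vehicle animals, labelled with Cy3. The 5 tissue and day combinations with 3 treatments gave 15 groups of 2 arrays, except that the retinoic acid groups of day 12 had 4 arrays each, for 34 arrays in all. The labels give dosing windows of gestational days 6 to 11 and 6 to 17, without tying them to groups, and give more than 1 retinoic acid dose, so none is attached to that treatment here. The labels do not say whether arrays of a group came from separate litters, pools or repeat hybridisations of the same RNA, or whether arrays share vehicle RNA, so the p-values measure only the spread between arrays, which may be technical. Dyes were not swapped, so a dye effect of a gene remains in each of its ratios. In bulk tissue, fewer cells of a type and less RNA per cell cannot be told apart.

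The arrays fall into 3 batches by the number in their titles, called A, B and C here. Batch A held the EMD 82571 groups of day 12 and 2 arrays of each retinoic acid group of that day. Batch B held the other 2 arrays of each of those retinoic acid groups and the retinoic acid groups of embryo and maternal liver on day 20. Batch C held the EMD 82571 groups of day 20 and the retinoic acid group of embryo bone. The retinoic acid and EMD 82571 groups of day 20 liver therefore cannot be told apart from their batches, and in embryo bone they were quantified in different sessions per the file headers. Nor can day and batch be told apart in the EMD 82571 responses, or tissue and batch where embryo bone is set against a liver with retinoic acid. The median spot signal was 1.19 to 5.35 times its local background in the treated channel and 1.60 to 4.57 times in the vehicle channel. The lowest treated values, 1.19 and 1.21, were those of maternal liver with retinoic acid on day 20. Of 12 hepatocyte markers, 9 were on the array, and their summed vehicle level, in multiples of an array's median probe, was 131 to 526 in the liver groups, against 5.14 to 8.52 in the whole embryo and bone groups. Of 17 bone and cartilage markers, 7 were on the array and 6 were used in the sum, which was 62.8 to 165 in vehicle embryo bone. Both sums followed the tissue labels. The hepatocyte sum is linear, so markers with high levels weigh most, led by A2m (mean log2 vehicle level 7.70 in maternal liver of day 20 and 6.62 in embryo liver). Some single markers separated the tissues less. Cyp2c12 averaged -0.89 in embryo liver and -0.90 in whole embryo, and mean Cyp2c11 was below the median probe in every tissue.

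Promoter sequences show what DNA lies just before an annotated start of these receptor genes, including the core motifs that receptors of this family bind. RefSeq windows of the rat assembly GRCr8 matched Ppara and Pparg, and Pparg had 2 starts. The windows cover the 250 bases before a start and lie on the plus strand. Ppara lies at chr7:118712261-118780723 and its window at chr7:118712357-118712606. Pparg lies at chr4:150095743-150221104, with windows at chr4:150096808-150097057 and chr4:150154522-150154771. By these coordinates each window lies inside the span of its gene, not upstream of the whole gene. Ppard, at chr20:6300527-6365707, and Cyp4a1, at chr5:134360096-134374233, are named only. Capitals mark matches to the motifs AGGTCA, or else GGGTCA, or else AGTTCA, or else GGTTCA, searched on both strands.
Ppara: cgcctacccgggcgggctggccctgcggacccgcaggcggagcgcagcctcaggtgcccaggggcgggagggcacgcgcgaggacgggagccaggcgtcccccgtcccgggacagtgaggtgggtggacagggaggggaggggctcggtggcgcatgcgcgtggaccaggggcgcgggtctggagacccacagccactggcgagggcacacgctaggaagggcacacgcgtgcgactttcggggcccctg
Pparg start 1: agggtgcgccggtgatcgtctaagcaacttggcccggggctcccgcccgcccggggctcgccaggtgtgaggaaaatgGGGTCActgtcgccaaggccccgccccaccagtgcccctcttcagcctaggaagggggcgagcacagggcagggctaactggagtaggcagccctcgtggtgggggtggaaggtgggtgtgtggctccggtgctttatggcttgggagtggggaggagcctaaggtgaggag
Pparg start 2: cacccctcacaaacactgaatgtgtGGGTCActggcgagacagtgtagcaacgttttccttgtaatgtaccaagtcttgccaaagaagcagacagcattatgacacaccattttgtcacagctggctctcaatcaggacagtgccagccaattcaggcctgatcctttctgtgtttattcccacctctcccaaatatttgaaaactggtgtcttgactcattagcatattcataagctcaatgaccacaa
Each Pparg window held 1 match, GGGTCA in both, at 172 and 225 bases before the start. The Ppara window held 0 matches, which says only that these letters are not in this window. Of 33469 RefSeq promoter windows, 39.1% held at least 1 match, so a match is a description and no evidence of binding.

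Vehicle levels were compared first, since they show where each gene was detected before any treatment. A vehicle level is the log2 Cy3 signal of a probe minus the median of named probes on that array, so 0 is the level of a typical probe. Spots marked as dim were kept in these levels, but not in the main ratios given later. The tests were fitted with limma over all probes with array batch as a term. Of the 25 member comparisons between tissues or days, 17 passed an adjusted p of 0.05 (68% against 61.7% of all probe comparisons), of which 4 were higher and 13 lower in the tissue or day named first (28.4% and 33.4% of all probe comparisons).

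Ppara was highest in embryo liver. The Ppara-1 level had its lowest, median and highest values at 3.67, 3.84 and 4.24 in embryo liver, 2.44, 2.61 and 2.83 in maternal liver on day 20, and 1.22, 1.84 and 1.96 in maternal liver on day 12. In embryo bone these values were -0.76, -0.50 and 0.24, and in the whole embryo -1.62, -1.06 and -0.69. The ranges of the 3 liver groups did not overlap with each other or with either other tissue, while those of embryo bone and whole embryo overlapped. Embryo liver was above maternal liver of day 20 by 1.25 ± 0.17 (log2 ± SE, 2.38-fold, adjusted p = 6.29e-08), where 54.8% of all probes passed. That difference was 1.34 within batch B and 1.21 within batch C. Maternal liver on day 20 was above maternal liver on day 12 by 0.86 ± 0.23 (adjusted p = 0.0099), where 12.5% of all probes passed. Within batch B, the only batch with both days, that difference was 1.10 with an adjusted p of 0.105, and without array 3 of maternal liver with retinoic acid on day 12 it was 0.60 (adjusted p = 0.0611). Whole embryo minus maternal liver of day 12 was -2.94 (adjusted p = 1.47e-19), where all 5 member probes and 80.2% of all probes passed. Embryo bone minus embryo liver was -4.20 (adjusted p = 4.08e-21), where 77% of all probes passed, and embryo bone minus maternal liver of day 20 was -2.95, where 83.3% passed.

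The second Ppara probe gave the same order among the livers. Ppara-2 averaged 1.42 ± 0.65 in embryo liver and 0.76 ± 0.37 in maternal liver of day 20 (SD, n = 6 each), a difference that passed (0.66, adjusted p = 0.00129), with 0.33 within batch B (adjusted p = 0.354) and 0.83 within batch C (adjusted p = 0.00165). Its difference between maternal liver of day 20 and of day 12 was 0.38 and did not pass (adjusted p = 0.327). Over the 34 arrays the vehicle levels of both probes correlated with r = 0.93, a description in which tissue and batch are shared.

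Ppard was highest in maternal liver on day 12 and lower there on day 20. Its lowest, median and highest vehicle levels were -0.15, 0.08 and 0.62 in maternal liver on day 20, against 1.50, 1.98 and 2.47 in maternal liver on day 12. The ranges did not overlap. The difference was -1.79 ± 0.33 (log2 ± SE, 3.45-fold, adjusted p = 5.98e-04) and was -1.50 within batch B (adjusted p = 0.0294). Ppara-1 and Ppard thus moved in opposite directions between these days in the tissue of the mother. Whole embryo, at 0.45 ± 0.31 (SD, n = 8), was below maternal liver of day 12, with a difference of -1.50 (adjusted p = 3.58e-08). The levels of embryo bone (0.71 ± 0.79), embryo liver (0.34 ± 0.23) and maternal liver of day 20 (0.16 ± 0.30; SD, n = 6 each) overlapped. Embryo liver and maternal liver of day 20 were not told apart (0.18, adjusted p = 0.505). Embryo bone minus maternal liver of day 20 passed for Ppard (0.56 ± 0.25, adjusted p = 0.0386), but it was 0.51 within batch C (adjusted p = 0.144) and was lost without any 1 of 5 arrays, 2 of them the retinoic acid arrays of bone. In embryo bone, the 2 retinoic acid arrays had vehicle Ppard levels of 1.75 and 1.63, above the range of -0.09 to 0.43 on the 4 EMD 82571 arrays. The treated levels there were 1.54 and 1.22, also above the EMD 82571 arrays (0.17 to 0.68), and a difference in RNA cannot be told apart from the quantification session.

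Pparg was dim in every tissue, with a mean vehicle level between -1.29 in whole embryo and -0.61 in maternal liver of day 20. It was above background in vehicle RNA on 3 of 8 whole embryo arrays and on every array of the other tissues. Only the difference between whole embryo and maternal liver of day 12 passed (-0.67, adjusted p = 4.55e-05), and it was -0.87 within batch A and -0.05 within batch B (adjusted p = 0.81). Day 20 maternal liver, embryo liver and embryo bone were not told apart. Fat cell markers could not be set beside it, as 0 of the 6 listed were on the array.

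Cyp4a1 was high in maternal liver and near background in the other tissues. Its lowest, median and highest vehicle levels were 1.38, 2.55 and 2.83 in maternal liver on day 20 and 1.45, 2.43 and 2.86 on day 12, and these ranges overlapped (difference 0.21, adjusted p = 0.689). In embryo liver they were -1.48, -1.28 and -0.60, in whole embryo -2.13, -1.52 and -1.15, and in embryo bone -2.62, -1.90 and -1.49. Embryo liver was therefore below maternal liver of day 20 on every array, with a difference of -3.59 ± 0.23 (log2 ± SE, 12.1-fold, adjusted p = 1.19e-15), and of -2.89 within batch B and -3.94 within batch C. Embryo liver thus had the highest Ppara-1 level of the 5 tissue and day combinations and a Cyp4a1 level under that of the median probe. Vehicle Cyp4a1 was above background on 1 of 8 whole embryo arrays, 5 of 6 embryo liver arrays and 5 of 6 embryo bone arrays.

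**Figure D1:**
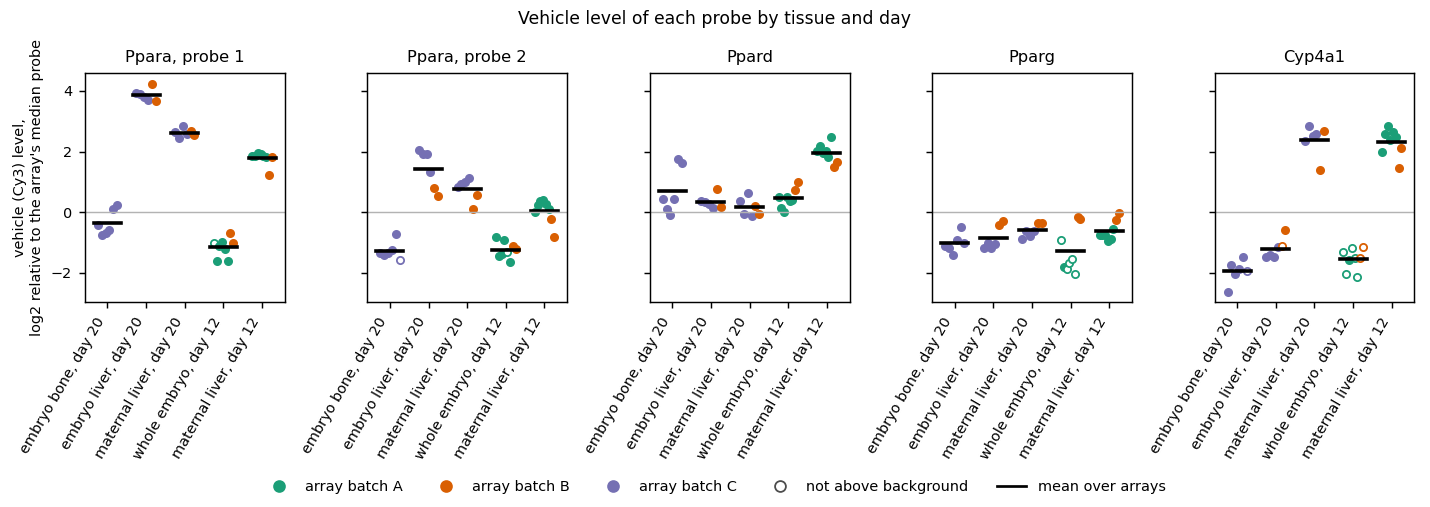
Vehicle level (log2 Cy3 minus the median of named probes of the array) of the 5 probes in the 5 tissue and day combinations. Each point is 1 array, an open point was not above background, and the black line is the mean. Ppara-1 is highest in embryo liver, where all 6 arrays lie at or above 3.67, and Cyp4a1 is high in maternal liver alone, where all arrays lie at or above 1.38.

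Treatment effects are given as the log2 ratio of treated over vehicle, after background correction and loess normalisation within each array. Of 75 possible member results, 74 had a value, and 20 passed an adjusted p of 0.05 in limma (27% against 23.7% of all probe results), 7 of them higher and 13 lower in treated tissue, against 9.97% and 13.7% of all probe results. By group, maternal liver on day 20 had 1 of 5 probes past the threshold at 150 mg/kg/day EMD 82571 (7.95% of all probes), 1 of 5 at 50 mg/kg/day (10.1%) and 3 of 5 with retinoic acid (18.8%). Embryo liver had 2 of 5 at 150 mg/kg/day (38.2%) and 3 of 5 with retinoic acid (52.2%). Embryo bone had 1 of 5 at 150 mg/kg/day (30.3%) and 2 of 5 with retinoic acid (53.2%). Maternal liver on day 12 had 2 of 5 at 150 mg/kg/day (21.1%) and 3 of 5 with retinoic acid (29.3%). Whole embryo had 1 of 4 at 50 mg/kg/day (15.1%) and 1 of 5 with retinoic acid (33.2%). In the other 4 groups limma called 0 members: embryo liver (13% of all probes) and embryo bone (12.2%) at 50 mg/kg/day, whole embryo at 150 mg/kg/day (6.9%) and maternal liver of day 12 at 50 mg/kg/day (14.3%). In these 4 an unadjusted p under 0.05 was reached by 1 result, in maternal liver of day 12.

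**Figure D2:**
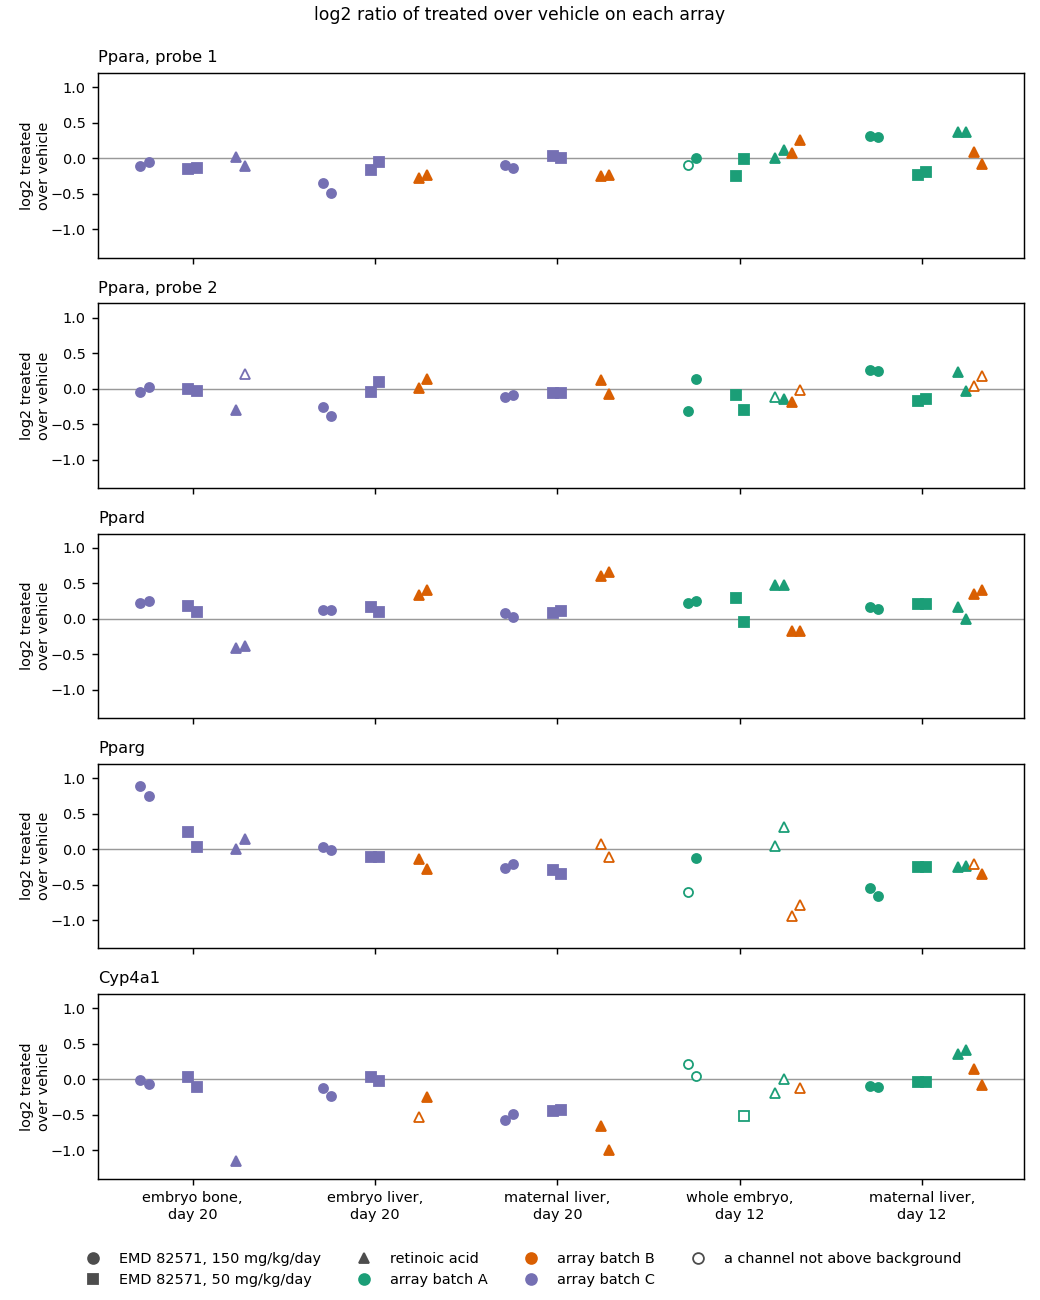
Ratio of treated to vehicle signal (log2) of every member probe on every array, by tissue and day. Marker shape gives the treatment, colour the array batch, and an open marker an array where a channel was not above background. Cyp4a1 lies below 0 on all 6 arrays of day 20 maternal liver, and the retinoic acid arrays of whole embryo split by batch for Ppard and Pparg.

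Between treatments, 2 of 24 member differences of high minus low dose passed, both higher (8.33% against 5.67% of all probe differences, of which 3.52% higher and 2.15% lower). Of 25 differences of high dose minus retinoic acid 5 passed (20% against 26.9%), 3 higher and 2 lower, against 15.4% and 11.5% of all probe differences. In whole embryo limma called 0 of 5 against retinoic acid (9.05% of all probes) and in maternal liver of day 12 also 0 of 5 (13.4%), with 0 and 1 at an unadjusted p under 0.05. The dose differences were Ppara-1 in maternal liver of day 12 and Cyp4a1 in whole embryo (0.66, adjusted p = 0.045, where 1.83% of all probes passed). The Cyp4a1 difference rests on a low dose value from 1 spot and was 0.05 with marked spots kept (adjusted p = 0.926).

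Cyp4a1, the target gene, fell in maternal liver of day 20 with each of the 3 treatments. The ratios on the 2 arrays were -0.58 and -0.48 at 150 mg/kg/day, -0.45 and -0.43 at 50 mg/kg/day, and -0.65 and -0.996 with retinoic acid. All 6 arrays were below 0, and the retinoic acid arrays lay below the EMD 82571 arrays. The log2 changes were -0.53 ± 0.09 (SE, adjusted p = 8.85e-04), -0.44 (adjusted p = 0.0036) and -0.82 (1.77-fold, adjusted p = 2.89e-06), in that order. The high minus the low dose was -0.09 ± 0.13 and did not pass (adjusted p = 0.999, where 2.52% of all probes passed). The high dose minus retinoic acid was 0.29 ± 0.13 and did not pass (adjusted p = 0.228), and treatment cannot be told apart from array batch there. The summed hepatocyte markers were 307 to 334 in treated and 318 to 335 in vehicle RNA at 150 mg/kg/day, 284 to 346 in treated and 305 to 342 in vehicle RNA at 50 mg/kg/day, and 635 to 693 in treated and 434 to 526 in vehicle RNA with retinoic acid. Of the 9 markers, 0 rose and 1 fell at the high dose, 0 rose and 3 fell at the low dose, and 1 rose and 1 fell with retinoic acid. The part of these values in the Cyp4a1 result was not tested. The retinoic acid result passed under all 12 other settings and without either array. The high dose result was lost without array 1 (adjusted p = 0.0756) and with the probe's mean over groups subtracted (-0.26, adjusted p = 0.0999), and the low dose result was lost without either array. The low dose result was also lost with the probe's mean subtracted (-0.17, adjusted p = 0.370), with the deposited ratios (-0.29, adjusted p = 0.550), with median centring (-0.35, adjusted p = 0.0510) and with array batch or session as a random block (adjusted p = 0.0655 and 0.0799).

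On day 12 no Cyp4a1 fall passed in maternal liver. Cyp4a1 ratios were -0.09 and -0.11 at 150 mg/kg/day and -0.04 and -0.04 at 50 mg/kg/day, and neither passed. With retinoic acid they were 0.35 and 0.41 in batch A, and 0.15 and -0.08 in batch B. The pooled value passed (0.21 ± 0.07, adjusted p = 0.023), but by batch it was 0.38 in A (adjusted p = 4.84e-04) and 0.04 in B (adjusted p = 0.706). The response of day 20 minus that of day 12 was -1.03 ± 0.12 with retinoic acid (adjusted p = 1.29e-06) and -0.43 ± 0.13 at 150 mg/kg/day (adjusted p = 0.0375). All probes passed at 21% and 12.9% in those comparisons. The retinoic acid difference kept its call under every other setting and without each array, while the high dose difference was lost without any 1 of its 4 arrays, with plain background subtraction (adjusted p = 0.0581) and with array batch or session as a random block (adjusted p = 0.364 and 0.372). All EMD 82571 arrays of day 20 lie in batch C and all of day 12 in batch A, so day cannot be told apart from batch in it.

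Some Cyp4a1 responses of the embryo on day 20 stood above those of maternal liver. Responses between tissues and days passed in 16 of 74 member comparisons (21.6% against 23.3% of all probe comparisons), 6 higher and 10 lower, against 10.9% and 12.4% of all probe comparisons. For Cyp4a1, embryo bone minus maternal liver was 0.49 ± 0.13 at 150 mg/kg/day (adjusted p = 0.00781, 24.8% of all probes), and embryo liver minus maternal liver was 0.44 ± 0.13 at 50 mg/kg/day (adjusted p = 0.0282, 13.4% of all probes) and 0.44 ± 0.13 with retinoic acid (adjusted p = 0.0189, 27.6% of all probes). Embryo liver minus maternal liver at 150 mg/kg/day was 0.35 ± 0.13 and did not pass (adjusted p = 0.052), and neither did embryo bone minus maternal liver at 50 mg/kg/day (0.40, adjusted p = 0.0518) and with retinoic acid (-0.33, adjusted p = 0.111). Each of the 3 calls was lost without at least 1 of its arrays and with the deposited ratios. Both embryo liver calls were also lost with median centring, at 0.40 with 50 mg/kg/day (adjusted p = 0.137) and 0.23 with retinoic acid (adjusted p = 0.237). Vehicle Cyp4a1 in embryo liver and bone was near background, so the size of its responses there is not well known. The part of this in the differences was not tested.

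In the embryo the Cyp4a1 signal was near background, and its values rest on few spots. In embryo liver with retinoic acid the ratios were -0.53, from 1 unmarked spot with neither channel above background, and -0.25, from 2 spots (-0.39, adjusted p = 0.0023). Its value was -0.04 with marked spots kept (adjusted p = 0.727). At 150 mg/kg/day the embryo liver ratios were -0.12 and -0.24 and at 50 mg/kg/day 0.04 and -0.02, and neither passed. In embryo bone with retinoic acid 1 array gave -1.15 from 1 unmarked spot, and the other array had no unmarked spot and was left out of the fit. That single value passed (-1.15 ± 0.13, adjusted p = 4.69e-07), was -0.26 with marked spots kept (adjusted p = 0.0247), and was -0.16 from the deposited ratios (adjusted p = 0.398). In whole embryo at 50 mg/kg/day the fit also rests on 1 spot of 1 array with vehicle not above background (-0.52, adjusted p = 0.013), and it did not pass with marked spots kept (-0.12, adjusted p = 0.469). Vehicle Cyp4a1 was not above background on any whole embryo array of the 150 mg/kg/day and retinoic acid groups, so no fold is given there.

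Across all groups Cyp4a1 was below 0 on 23 of 31 arrays with a ratio and in 12 of 15 group means. Its mean over groups was -0.27, at the 1.67th percentile of the named probes. That mean includes values from 1 spot of 1 array in embryo bone with retinoic acid (-1.15) and in whole embryo at 50 mg/kg/day (-0.52). With dyes never swapped, a dye effect of this probe was not tested, and the setting that subtracts this mean removes it along with any response common to all groups.

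Cyp7a1, which catalyses the first and limiting step from cholesterol to bile acids, was the 1 gene on the array of 40 listed genes of lipid metabolism and receptor targets. It fell in maternal liver of day 20 with retinoic acid (-1.26 ± 0.09, adjusted p = 5.82e-10) and at 50 mg/kg/day (-0.50, adjusted p = 5.19e-04), and was 0.33 at 150 mg/kg/day (adjusted p = 0.13). It rose in maternal liver of day 12 at 150 mg/kg/day (0.82), at 50 mg/kg/day (0.47) and with retinoic acid (0.88). Of the 22 probes of other cytochrome P450 genes in maternal liver of day 20, 3 rose and 2 fell at 150 mg/kg/day (7.95% of all probes passed), 0 rose and 3 fell at 50 mg/kg/day (10.1%), and 0 of 21 tested rose and 3 fell with retinoic acid (18.8%). Their medians were 0.08, 0.02 and -0.10, against all-probe medians of 0.00, 0.00 and -0.05. Those named in all 3 groups were Cyp3a9 (-0.81, -0.55 and -0.70) and Cyp17a1 (-0.48, -0.77 and -0.56). On day 12 at 150 mg/kg/day 6 of 21 rose and 1 fell (21.1% of all probes passed), led by CYP2B1/2 (5.27) and Cyp3a23-3a1 (2.91), while Cyp4a1 did not pass.

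Both Ppara probes fell in embryo liver at the high dose of EMD 82571. Ppara-1 ratios were -0.35 and -0.49 at 150 mg/kg/day, -0.16 and -0.05 at 50 mg/kg/day, and -0.28 and -0.24 with retinoic acid. All 6 arrays were below 0, and the high dose arrays were lowest. The change was -0.42 ± 0.08 at 150 mg/kg/day (SE, 1.34-fold, adjusted p = 1.57e-04) and -0.26 with retinoic acid (adjusted p = 0.010). Ppara-2 ratios were -0.26 and -0.39 at 150 mg/kg/day, -0.05 and 0.10 at 50 mg/kg/day, and 0.01 and 0.13 with retinoic acid, so its high dose arrays did not overlap with those of either other treatment. Its change was -0.33 ± 0.10 at 150 mg/kg/day (adjusted p = 0.0092). Summed hepatocyte markers were 155 to 172 in treated and 131 to 160 in vehicle RNA at that dose, with 1 of 9 higher and 2 lower, and their part was not tested. The Ppara-1 high dose call was lost only with the deposited ratios (-0.24, adjusted p = 0.24), and its retinoic acid call was lost without either array and turned to 0.13 with the deposited ratios. That retinoic acid value was -0.08 with median centring (adjusted p = 0.472), and the call was also lost with the probe's mean subtracted (-0.18, adjusted p = 0.0691) and with array batch or session as a random block (adjusted p = 0.102 and 0.0733). The Ppara-2 high dose call was lost without array 2 (-0.26, adjusted p = 0.186), with median centring (adjusted p = 0.0512), with array batch or session as a random block (adjusted p = 0.105 and 0.108) and with the deposited ratios (-0.07, adjusted p = 0.724).

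With retinoic acid in embryo liver the Ppara-1 call was not shared by Ppara-2, and the difference between the probes was not tested. For Ppara-2 the high dose minus retinoic acid was -0.39 ± 0.14 (adjusted p = 0.0239, where 40.5% of all probes passed), and it was -0.16 ± 0.11 for Ppara-1 (adjusted p = 0.247), and treatment there cannot be told apart from batch. The Ppara-2 call was lost without array 2 of either group and under 5 other settings, among them the deposited ratios (-0.13, adjusted p = 0.551). The difference between the doses was -0.32 for Ppara-1 (adjusted p = 0.0728) and -0.35 for Ppara-2 (adjusted p = 0.101), and neither passed. The embryo liver response minus that of maternal liver at 150 mg/kg/day was -0.31 ± 0.11 for Ppara-1 (adjusted p = 0.041, where 29.8% of all probes passed). It was lost without any 1 of its 4 arrays, with plain background subtraction (adjusted p = 0.129), with median centring (-0.11, adjusted p = 0.671) and with the deposited ratios (-0.01, adjusted p = 0.978).

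In maternal liver of day 12 Ppara-1 moved with the dose. Its ratios were 0.32 and 0.30 at 150 mg/kg/day and -0.23 and -0.19 at 50 mg/kg/day, on opposite sides of 0. Ppara-2 ratios there were 0.27 and 0.25 at 150 mg/kg/day and -0.17 and -0.15 at 50 mg/kg/day, in the same arrangement. The high dose minus the low dose was 0.52 ± 0.11 for Ppara-1 (adjusted p = 0.0023, where 7.79% of all probes passed) and 0.42 for Ppara-2 (adjusted p = 0.0592). The Ppara-1 difference was lost in a fit to this tissue alone (adjusted p = 0.0527) and with the deposited ratios (0.49, adjusted p = 0.23). Over vehicle, Ppara-1 rose at 150 mg/kg/day (0.31 ± 0.08, adjusted p = 0.0067), a call lost without either array, in a fit to this tissue alone (adjusted p = 0.0568) and with array batch or session as a random block (adjusted p = 0.0856 and 0.101), and its low dose value did not pass. With retinoic acid Ppara-1 was 0.38 and 0.37 in batch A and 0.09 and -0.08 in batch B. The pooled value passed (0.19 ± 0.06, adjusted p = 0.014), and it was 0.37 within batch A (adjusted p = 5.35e-06) and 0.01 within batch B (adjusted p = 0.921). Ppara-2 had no such split, at 0.10 within batch A (adjusted p = 0.464) and 0.11 within batch B (adjusted p = 0.375). Cyp4a1 split between these batches as Ppara-1 did.

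In maternal liver of day 20 Ppara-1 fell with retinoic acid, and the response of embryo liver minus that of maternal liver was -0.02 ± 0.11 and did not pass (adjusted p = 0.913). Its ratios in maternal liver were -0.24 and -0.23 with retinoic acid (adjusted p = 0.037, lost without either array, with plain background subtraction, with the probe's mean subtracted and with either random block), -0.09 and -0.13 at 150 mg/kg/day, and 0.03 and 0.00 at 50 mg/kg/day. On the retinoic acid arrays of maternal liver Ppara-2 was 0.12 and -0.08, so it did not share the fall. The difference between the probes was not tested. Ppara-1 ratios in embryo bone lay between -0.15 and 0.02 on all 6 arrays. Over the 15 group means the probes correlated with r = 0.64 and had the same sign in 10, a description in which both share arrays and batches.

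**Figure D3:**
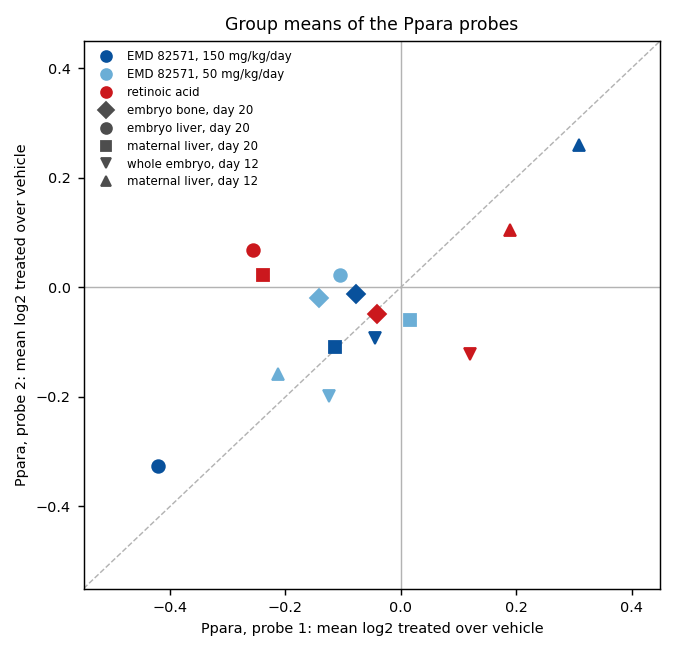
Group mean log2 ratio of treated over vehicle of the Ppara-2 probe against that of the Ppara-1 probe over 15 groups, with the dashed line where both are equal. The probes have the same sign in 10 groups, and the high dose group of embryo liver is low on both.

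Ppard was the receptor with the most ratios above 0. It was above 0 on 29 of 34 arrays and in 14 of 15 group means, with a mean over groups of 0.17, at the 97.9th percentile of the named probes. A dye effect common to all arrays was not tested. In maternal liver of day 20 its ratios were 0.08 and 0.03 at 150 mg/kg/day, 0.09 and 0.11 at 50 mg/kg/day, and 0.60 and 0.66 with retinoic acid. The retinoic acid arrays stood above the EMD 82571 arrays, and the rise was 0.63 ± 0.12 (SE, 1.55-fold, adjusted p = 5.63e-04). The high dose minus retinoic acid was -0.58 ± 0.17 (adjusted p = 0.0315, where 7.86% of all probes passed), a call lost without any 1 of the 4 arrays, without background correction (-0.29, adjusted p = 0.185), with array batch or session as a random block (adjusted p = 0.169 and 0.177) and with the deposited ratios (-0.11, adjusted p = 0.788). Those groups lie in different batches. The deposited ratios gave 0.19 for the retinoic acid rise (adjusted p = 0.271).

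In the embryo, Ppard rose in liver and fell in bone with retinoic acid. In embryo liver its ratios were 0.12 and 0.12 at 150 mg/kg/day, 0.17 and 0.10 at 50 mg/kg/day, and 0.33 and 0.40 with retinoic acid (0.37, adjusted p = 0.013). In embryo bone they were 0.22 and 0.25 at 150 mg/kg/day, 0.19 and 0.10 at 50 mg/kg/day, and -0.41 and -0.39 with retinoic acid (-0.40, adjusted p = 0.0064). Bone with retinoic acid was the 1 group mean of 15 below 0. Its response minus that of embryo liver was -0.77 ± 0.17 (adjusted p = 8.93e-04, where 46.9% of all probes passed), and minus that of maternal liver -1.03 ± 0.17 (adjusted p = 4.08e-05, 43.6% of all probes). The bone arrays are of batch C and the liver arrays of batch B, so tissue cannot be told apart from batch in both, and the deposited ratios gave -0.28 (adjusted p = 0.217) and -0.26 (adjusted p = 0.218). In bone, high dose minus retinoic acid was 0.64 ± 0.17 (adjusted p = 0.0025, 63.7% of all probes), and 0.39 with the deposited ratios (adjusted p = 0.0628). The liver and bone calls over vehicle were each lost without either of their arrays, and from the deposited ratios bone gave -0.07 (adjusted p = 0.664). The embryo liver rise was 0.20 with the probe's mean subtracted (adjusted p = 0.178) and 0.21 with the deposited ratios (adjusted p = 0.204), and the bone call was also lost with array batch or session as a random block (adjusted p = 0.0631 and 0.0708). As given above, the vehicle Ppard level was higher on the retinoic acid arrays of bone than on the others, and its part in the ratio was not tested.

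On day 12 the retinoic acid values of Ppard split by batch. In whole embryo they were 0.47 and 0.48 in batch A and -0.17 and -0.18 in batch B, so the batches did not overlap. The value was 0.47 within batch A (adjusted p = 2.04e-07) and -0.18 within batch B (adjusted p = 0.00941), and the pooled value did not pass. In maternal liver they were 0.17 and 0.00 in batch A and 0.36 and 0.41 in batch B, and the pooled 0.23 ± 0.08 passed (adjusted p = 0.040), with 0.09 within A (adjusted p = 0.211) and 0.38 within B (adjusted p = 6.69e-06). The tissues thus split in opposite directions. At 150 mg/kg/day Ppard was 0.22 and 0.25 in whole embryo and 0.16 and 0.14 in maternal liver, and neither passed.

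Pparg rose in embryo bone at the high dose of EMD 82571. Its ratios were 0.89 and 0.75 at 150 mg/kg/day, 0.24 and 0.04 at 50 mg/kg/day, and 0.01 and 0.14 with retinoic acid, so the high dose arrays lay above all others. The rise was 0.82 ± 0.18 (SE, 1.77-fold, adjusted p = 0.00114). It passed under all 12 other settings, between 0.57 and 0.94, and was lost without array 1 (0.75, adjusted p = 0.0546). For Pparg the high dose minus retinoic acid was 0.75 ± 0.26 (adjusted p = 0.0151), lost without array 1 of either group, with plain background subtraction (adjusted p = 0.0640) and with session as a random block (adjusted p = 0.0682), and the high minus the low dose was 0.68 ± 0.26 and did not pass (adjusted p = 0.119, where 5.04% of all probes passed). The high dose response of bone minus that of embryo liver was 0.81 ± 0.26 (adjusted p = 0.0159, 39.2% of all probes), and minus that of maternal liver 1.06 ± 0.26 (adjusted p = 0.00276, 24.8% of all probes). The first of these was lost with plain background subtraction (adjusted p = 0.0757), with the deposited ratios (0.53, adjusted p = 0.0532) and without any 1 of 3 of its 4 arrays.

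In the same bone group, where 30.3% of all probes passed, all 4 measured genes of a list of 7 embryonic patterning genes rose: Foxj1 (1.59), Hoxa2 (1.32), Crabp2 (0.54) and Pax9 (0.40). Their summed level was 7.29 to 7.89 in treated and 4.40 to 4.90 in vehicle RNA. This list was set with earlier results of these data known, so the rise of all 4 is a description only. The summed bone and cartilage markers were 67.7 to 87.0 in treated and 87.8 to 113 in vehicle RNA, with 1 of 6 higher and 3 lower. The summed hepatocyte markers were 2.48 to 2.70 in treated and 6.39 to 6.85 in vehicle RNA, with 0 of 9 higher and 2 lower. Of the other P450 probes, 1 of 22 rose and 3 fell there, and Rxra, Cyp7a1 and the 4 other nuclear receptors did not pass. The part of other cells in the Pparg result was not tested.

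Pparg was lower in maternal liver of day 12. Its ratios were -0.55 and -0.66 at 150 mg/kg/day, -0.25 and -0.25 at 50 mg/kg/day, and -0.21 to -0.35 on the 4 retinoic acid arrays, all below 0. Only the high dose value passed (-0.61 ± 0.18, adjusted p = 0.0175), and it was lost without either array, with the probe's mean subtracted (-0.48, adjusted p = 0.0688) and with the deposited ratios (-0.37, adjusted p = 0.0741). In whole embryo with retinoic acid Pparg was 0.04 and 0.31 in batch A, where vehicle RNA was not above background, and -0.95 and -0.79 in batch B, where treated RNA was not. The pooled -0.35 ± 0.13 passed (adjusted p = 0.042), while batch A alone gave 0.18 (adjusted p = 0.0779) and batch B alone -0.87 (adjusted p = 1.19e-07). In whole embryo at 50 mg/kg/day neither channel was above background on either array and no spot was unmarked, so Pparg has no value there. In maternal liver of day 20 its ratios were -0.27 and -0.21 at 150 mg/kg/day and -0.30 and -0.35 at 50 mg/kg/day, which did not pass, and treated RNA was not above background with retinoic acid.

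**Figure D4:**
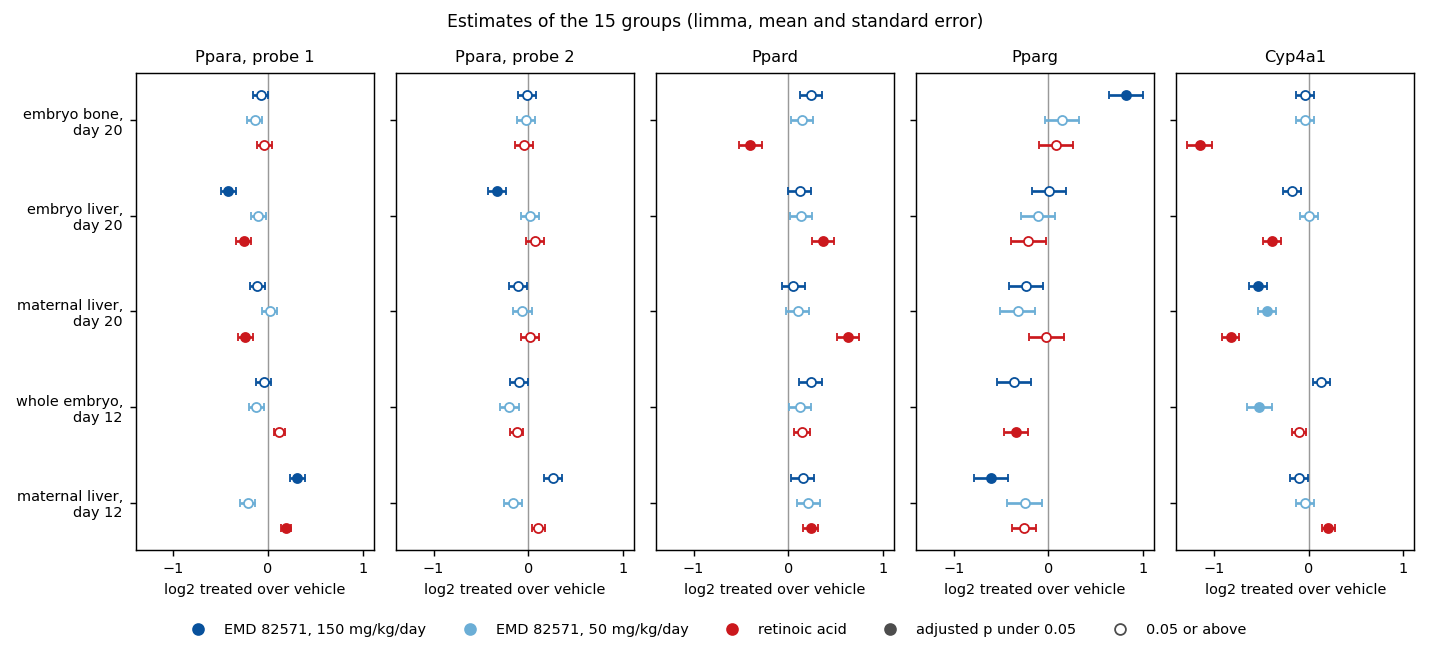
Estimated log2 change of treated over vehicle for the 5 probes in the 15 groups, with bars of 1 standard error. Filled points have an adjusted p under 0.05. Pparg stands apart upward at the high dose in embryo bone (0.82), and Cyp4a1 is filled below 0 in all 3 groups of day 20 maternal liver.

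Rxra was the 1 measured gene of 12 listed partners and coregulators. It rose in embryo liver with retinoic acid (0.53 ± 0.09, adjusted p = 8.30e-05) and fell in embryo bone with retinoic acid (-0.72 ± 0.09, adjusted p = 6.67e-07), and passed in neither direction in the other groups. Ppard passed in the same directions in those groups, where 52.2% and 53.2% of all probes passed. With retinoic acid Ppard also rose in maternal liver of day 20 and of day 12, where Rxra was -0.16 and 0.09 and did not pass. Of 16 other listed nuclear receptors 4 were measured, Rara, Rarb, Rarg and Hnf4a. With retinoic acid, Rarg fell in embryo bone (-0.35, adjusted p = 2.62e-05) and in whole embryo (-0.23), Rarb rose in embryo liver (0.17, adjusted p = 0.0424) and in maternal liver of day 12 (0.18), and Hnf4a rose in whole embryo (0.59, adjusted p = 0.00252). In maternal liver with EMD 82571, Rarg fell on day 20 at 150 mg/kg/day (-0.25), Rarb rose on day 20 at 50 mg/kg/day (0.23), and Rara fell on day 12 at 50 mg/kg/day (-0.13). At 150 mg/kg/day, Rara fell in embryo liver (-0.16), the group in which both Ppara probes fell. Of the other P450 probes, 1 of 22 rose and 6 fell in that group, a smaller share than the 38.2% of all probes that passed there, with a median of -0.08 and an all-probe median of -0.02, and Cyp7a1 was among those that fell (-0.98, adjusted p = 1.02e-08).

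The genes with the most similar pattern to each probe were ranked by correlation over the group means among 168 probes with a value in all groups used. Pparg was most like Plat (r = 0.90), Hoxa2 (0.83) and Ccn2 (0.82) over 14 groups. Over 15 groups Cyp4a1 was most like Nat2 (0.81), Hprt1 (0.75) and Fgf14 (0.70), and Ppard most like Atf2 (0.79), TUBA (0.71) and Hprt1 (0.62). The nearest to Ppara-1 were Lama3 (0.64) and Col18a1 (0.64), and to Ppara-2 UGT1A6 (0.67). These correlations describe 14 or 15 points that share batches and dye orientation. For Cyp4a1, the points of embryo bone with retinoic acid and of whole embryo at 50 mg/kg/day each rest on 1 spot of 1 array.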

How the data were processed

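The 2-colour cDNA arrays measured treated (Cy5) and vehicle (Cy3) RNA of the same tissue. Per the file headers, the deposited spot files hold the authors' mean spot and local background intensity of each channel, with no normalisation. The authors' deposited value table holds log2 ratios of treated over vehicle, whose direction and scale were found by setting each column against the scanner values: 246 rows, raw and uncentred, with array medians of -0.705 to 0.334. Its row order was inferred, with a lowest member correlation of 0.941. It served as an alternative. Columns of per-sample values not used came to 0.

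Spots were corrected with normexp (offset 50) and global loess in limma 3.58.1 under R 4.3.3, giving weight 0 to controls, empty positions and spots the scanner software had marked. For the ratios, the up to 4 unmarked spots of a probe were averaged. Vehicle and treated levels and the calls above background also used spots marked as dim. A probe counted as above background on an array where a share of at least 0.5 of its spots exceeded local background by 2 background SD, and was tested where this held in a channel on at least 2 arrays. The arrays of batch C name their probes, and the same row and column named the other arrays' probes. Levels of the same tissue correlated across batches over 232 positions (rho 0.899 to 0.924, at most 0.215 over 231 shifted positions). A single fit of the ratios with 15 group means over all 34 arrays gave moderated two-sided tests (prior df 3.34). Benjamini-Hochberg adjustment ran over all probes within a contrast, with a threshold of 0.05. Contrasts of this fit were the 15 groups over vehicle, high minus low dose, high dose minus retinoic acid, and responses between tissues and days. Vehicle levels were tested in a separate limma fit of 5 tissue and day means with array batch as a term, with the same adjustment and threshold. Fits were checked on simulated data. The number of arrays limits precision. The members and lists were chosen with earlier results of these data known. Named genes are all members, list members past the threshold with the lowest adjusted p (at most 4 a group), and up to 3 probes most like each member. Outside that rule, Rxra, Cyp7a1 and the measured nuclear receptors were also named in other groups, as were the measured patterning genes in embryo bone. Alternatives changed background correction, normalisation, spot and probe filters, blocks, arrays left out and the value table.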

Additional observations from a re-analysis of the deposited data

Results flagged for a closer look

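A vehicle level stood far from the others in 3 of 34 groups of arrays looked at, and chance alone sets such an array apart in about 1 in 20 groups. Ppara-1 was 1.22 on a retinoic acid array of maternal liver on day 12, Cyp4a1 was 1.38 on a retinoic acid array of maternal liver on day 20, and Ppard was 0.77 on a retinoic acid array of embryo liver. All 3 arrays are of batch B.

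The tested difference between tissues or days passed for 16 member responses, of 74 with a value (21.6% against 23.3% of all probe results). With 150 mg/kg/day EMD 82571, Ppara-1 responses differed by -0.35 between whole embryo and maternal liver of day 12, by -0.42 between maternal liver of day 20 and of day 12, by -0.31 between embryo liver and maternal liver of day 20, and by 0.34 between embryo bone and embryo liver. The -0.35 and -0.42 calls were lost without any 1 of their arrays and with plain background subtraction (adjusted p = 0.0907 and 0.0537). The 0.34 call was lost with plain background subtraction (adjusted p = 0.0757), with median centring (0.26, adjusted p = 0.158) and with the deposited ratios (0.17, adjusted p = 0.615). Limma called 0 of 15 such responses for Ppara-2. At 150 mg/kg/day Cyp4a1 responses differed by -0.43 between maternal liver of day 20 and of day 12 and by 0.49 between embryo bone and maternal liver of day 20, and Pparg responses by 0.81 between embryo bone and embryo liver and by 1.06 between embryo bone and maternal liver of day 20. At 50 mg/kg/day the Cyp4a1 response of embryo liver minus that of maternal liver was 0.44. Here, in the 0.49 above and in the 0.44 with retinoic acid below, embryo Cyp4a1 lay near background. Each of these calls was lost with the deposited ratios. With retinoic acid, Cyp4a1 responses differed by -1.03 between maternal liver of day 20 and of day 12 and by 0.44 between embryo liver and maternal liver of day 20. The value of -0.31 between whole embryo and maternal liver of day 12 rests on whole embryo arrays where vehicle Cyp4a1 was not above background, so the size of that response is not known, and in batch B alone it was -0.15 (adjusted p = 0.389). The value of -0.76 between embryo bone and embryo liver rests on 1 spot of 1 bone array and on 3 spots of 2 liver arrays, and was -0.22 with marked spots kept (adjusted p = 0.211) and 0.23 with the deposited ratios (adjusted p = 0.457). Ppara-1 differed by -0.43 between maternal liver of day 20 and of day 12. Ppard differed by -0.77 between embryo bone and embryo liver and by -1.03 between embryo bone and maternal liver of day 20, where bone and liver lie in different array batches. Day and batch cannot be told apart in the EMD 82571 differences between days.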

How the results depend on the processing

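The member counts that passed were 20 for treated over vehicle, 2 for high minus low dose, 5 for high dose minus retinoic acid, 16 for responses between tissues and days and 17 for vehicle levels. Of the 60 results past the threshold, 16 kept it under every other setting and 15 of these also without each array, while 31 were lost without at least 1 array. Leaving out 1 array gave 17 to 21, 1 to 4, 3 to 6, 12 to 22 and 16 to 18, in the same order. Treated over vehicle counts moved to 10 with array batch (correlation 0.387) or quantification session (0.409) as a random block, to 13 with each probe's mean over groups subtracted, and to 8 with the deposited ratios, 5 of them shared. The dose count moved to 5 without background correction, in fits to the tissues compared and with either random block, and to 1 with median centring, with marked spots kept or with at least 2 spots per value. The deposited ratios gave a dose count of 0 in limma, with 3 at an unadjusted p under 0.05. The high dose minus retinoic acid count moved to 3 with plain subtraction or session block, to 9 in fits to the tissues compared and to 2 with the deposited ratios. In fits to the tissues compared 31 responses passed. With the day 12 retinoic acid groups of batch A alone, counts were 33, 6, 12 and 33, and of batch B alone 34, 6, 12 and 31. Within batch B, 6 vehicle results passed against 10 of the same contrasts. Signs turned in 11 cases. In batch A alone these were whole embryo Pparg with retinoic acid (0.18), its response minus that of maternal liver for Pparg (0.42) and Ppard (0.39), and Ppard of high dose minus retinoic acid (-0.24). In batch B alone they were whole embryo Ppard with retinoic acid (-0.18) and Pparg of high dose minus retinoic acid (0.51). With the deposited ratios and retinoic acid they were Ppara-1 in embryo liver (0.13) and its response minus that of maternal liver (0.67), and the Cyp4a1 response of bone minus that of embryo liver (0.23) and of maternal liver (0.70), the last also 0.56 with marked spots kept. The cause was not tested. The session block and the 2-spot minimum were chosen after seeing the data. Beyond the treated and vehicle RNA that share an array, arrays could not be paired between tissues or groups, because the labels carry no replicate numbers. Signal near background limits the embryo values of Cyp4a1 and Pparg.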
